A study of Homo sapiens with 4 samples.

Results

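Polycomb repressive complex 2 (PRC2) is the enzyme complex that methylates histone H3 at the residue called H3K27, a mark of silenced developmental genes. Its core holds a catalytic subunit, EZH2 or its homolog EZH1, with EED, SUZ12 and a histone chaperone, RBBP4 or RBBP7. Accessory proteins bring the core to chromatin: PHF1, MTF2 and PHF19 are the Polycomb-like proteins, whose Tudor domain can bind methylated H3K36, and JARID2 marks an alternative form of the complex. The genes described here are these 10 subunits, found among the 36337 gene names on the array by an exact match of the name. They were covered by 14 probes, all of which were well above background on all 4 arrays. PHF19 was chosen by its measured values, namely a decrease after the miR-34a mimic on one probe and a disagreement between its probes, so its values are a description with no test. The other 9 genes were added because they encode subunits of the same complex.

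All RNA came from a single established human line, GIST-T1, grown from a gastrointestinal stromal tumor (GIST). Cells (3000000 per transfection) were electroporated with 100 pmol of a synthetic mimic of mature miR-34a or with 100 pmol of a negative control mimic, and both conditions were otherwise alike in their labels. RNA was taken after 48 h, and 100 ng of each sample was labeled in 1 color for 1 array, giving 2 arrays per condition. The sources used here do not say whether the 2 arrays of a condition came from separate cultures, so the p-values measure the spread between these samples, which may be technical. With 2 arrays against 2, an exact permutation test of a single value cannot give a two-sided p below 0.33. Levels are the log2 processed signal relative to the 75th percentile of the array, and each difference is the mean of the miR-34a mimic arrays minus that of the negative control arrays.

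The RNA that was added and the probes that disagreed are shown first. The miRNA is written 5′ to 3′ with its seed, bases 2 to 8, in capitals. The mature sequence is encoded at chr1:9151735-9151756, minus strand, in GRCh38.p14, and is that of RefSeq. For each PHF19 probe the first 30 of 60 bases are given, to show that the probes read different stretches of the gene.
hsa-miR-34a-5p: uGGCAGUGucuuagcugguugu
PHF19 variant 1 probe: gcttcagagagcccagcaaccttctaggcc
PHF19 variant 2 probe: tcccatcacagagtctgagctccaagcaga
The letters that pair with the seed, CACTGCC, were in 0 of the 14 probes for the 10 genes and in 0.435% of the 50599 probes on the array. The letters ACTGCCA, which pair with bases 2 to 7 and end in A, were in 0 of the 14 probes and in 0.393% of all probes. A probe covers 60 bases of a transcript, and the 3′ UTRs were not searched here.

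PHF19, a Polycomb-like protein that recruits PRC2, had one probe past the 1.5-fold threshold, lower in mimic-treated cells, and another that was not. The probe annotated to transcript variant 1 (NM_015651; chr9:123618245-123618304 in hg19, minus strand) read 0.47 and 0.68 after the mimic and 1.69 and 1.65 in the control. Both miR-34a mimic arrays lay well below both control arrays. Its mean was 0.57 ± 0.15 (SD, n = 2) after the mimic and 1.67 ± 0.030 (SD, n = 2) in the control, a log2 difference of -1.10, which leaves 46.8% of the control signal. The probe annotated to transcript variant 2 (NM_001009936; chr9:123631999-123632058 in hg19, minus strand) read 5.70 and 5.66 after the mimic and 5.80 and 5.78 in the control. Here too the groups did not overlap, but the log2 difference was -0.11, or 92.6% of the control signal.

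PHF19 is transcribed from the minus strand, so the variant 1 probe lies 13.7 kb farther toward the 3′ end of the gene than the variant 2 probe. The array's annotation gives no exon for either, and no hg19 gene model was used here. Against the control mean, the variant 1 probe fell further than the variant 2 probe by 1.11 on miR-34a mimic array 1 and by 0.86 on array 2, in log2 units. Because the probes were picked for this disagreement, it carries no test. To place its size, 3650 genes had at least 2 probes well above background on all 4 arrays, and the median range of log2 differences among the probes of a gene was 0.16. PHF19 had a range of 0.99, and 35 of the 3650 genes (0.959%), PHF19 included, had a range at least as large. Among the 1282 genes whose probes carry more than 1 accession, the median range was 0.21 and 19 (1.48%) reached that of PHF19. Levels of different probes are not comparable, so the arrays do not give the share of the PHF19 transcripts that each probe reads.

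**Figure D1:**
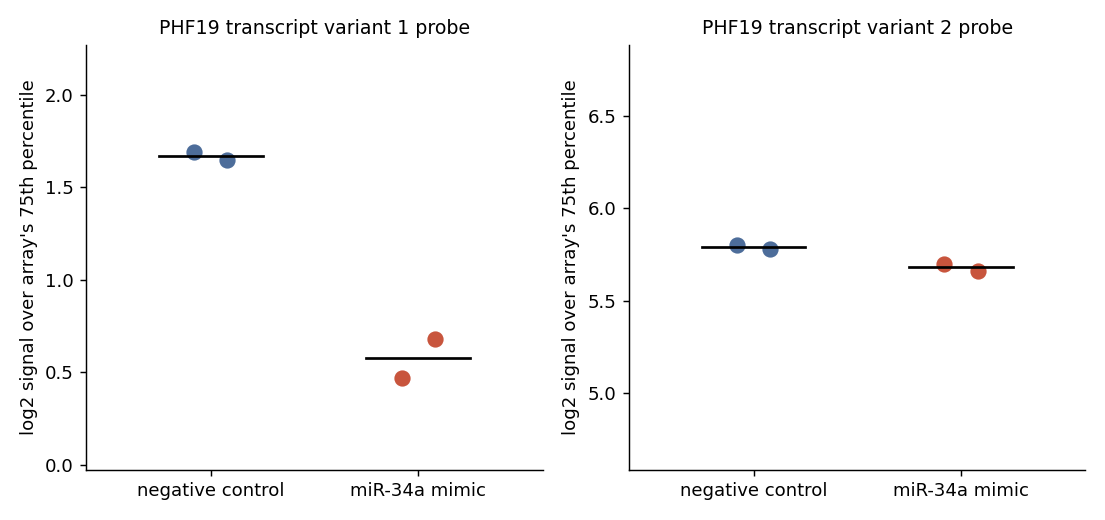
Level of PHF19 on each array by its transcript variant 1 probe (left) and transcript variant 2 probe (right), as log2 signal relative to the 75th percentile of the array; both vertical axes span the same log2 range. Points are arrays and bars are means of 2 arrays. The variant 1 probe falls from about 1.67 to 0.57 and the variant 2 probe from 5.79 to 5.68.

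**Figure D2:**
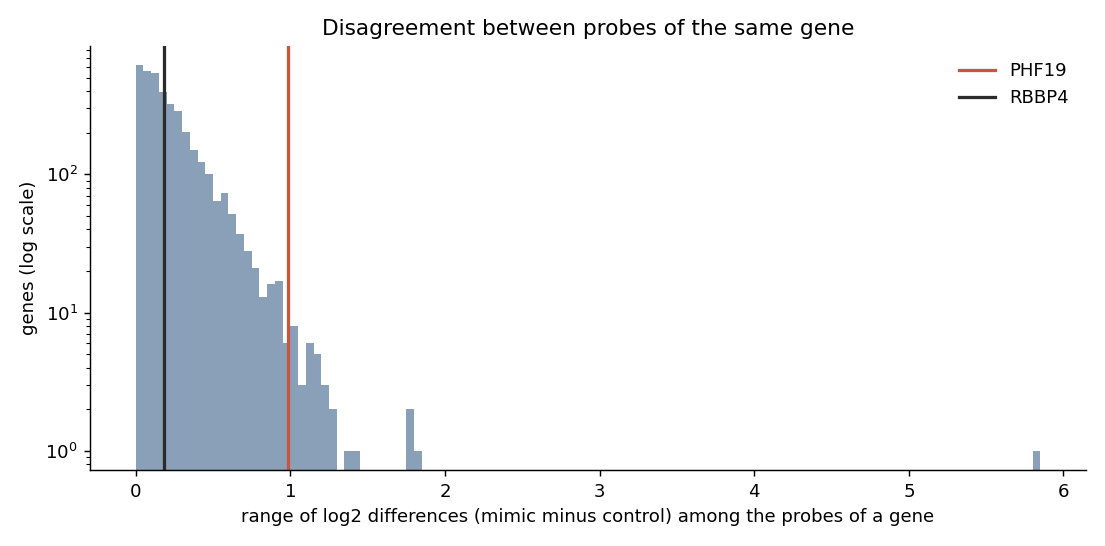
Number of genes (log scale) by the range of log2 differences among their probes, for the 3650 genes with 2 or more probes detected on every array. The red line marks PHF19, at 0.99, and the black line RBBP4, at 0.18.

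Of the 14 probes, 1 (PHF19 variant 1) was lower by more than 1.5-fold, against 4.8% of the 21474 probes tested, and 0 were higher by more than 1.5-fold, against 2.11%. The first count includes the probe that was picked for its decrease. Among the 12 probes of the other 9 genes, 10 were lower and 2 higher, the median log2 difference was -0.11 against -0.01 for all probes tested, and the largest change was 1.26-fold. The miR-34a mimic arrays both lay below the control arrays for 7 of these 12 probes, against 30.1% of all probes, and both lay above them for 2 (EZH1 and PHF1), against 30.4%. For RBBP7 that separation was smaller than the rounding of the printed levels. By limma with Benjamini-Hochberg adjustment over all tested probes, 0 of the 12 passed an adjusted p of 0.05, as did 0.0% of all probes, whose smallest adjusted p was 0.0948. At an unadjusted p under 0.05, 2 of the 12 were lower, against 11.6% of all probes, and both were RBBP4 probes. Across all genes, 51.3% read lower by the brightest tested probe. The 12 probes are not independent, since several read RBBP4, and the groups overlapped on 3 of them. Some of the 10 decreases were close to no change, such as RBBP7 at -0.02 and RBBP4 probes at -0.07 and -0.04. Thus most of these probes read slightly lower, and 0 of the differences passed the adjusted threshold.

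**Figure D3:**
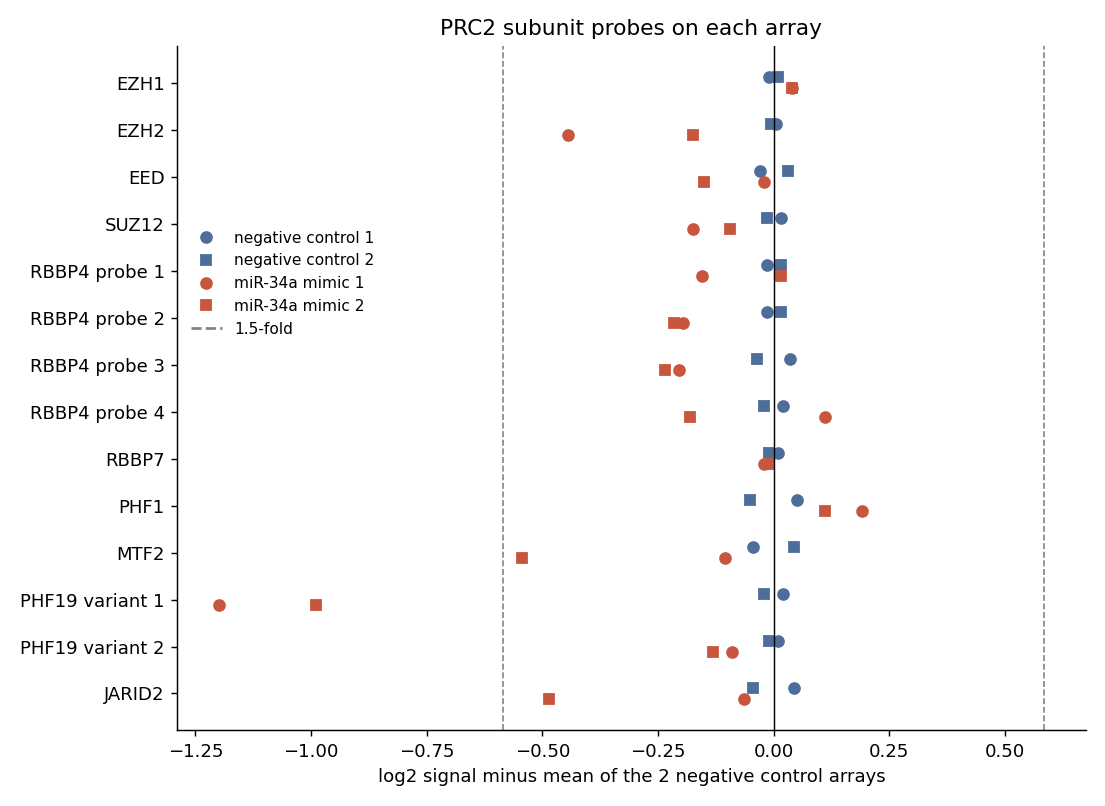
Log2 signal of each of the 14 PRC2 probes on each array, minus the mean of the 2 negative control arrays. Circles are replicate 1 and squares replicate 2, dashed lines mark a 1.5-fold change, and RBBP4 probes are numbered by position. Only the 2 mimic points of PHF19 variant 1 lie beyond the left line, and the mimic points of MTF2 and JARID2 are far apart.

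Of the catalytic subunits, EZH2 read lower and EZH1 differed by less than its standard error. The EZH2 probe (NM_004456; chr7:148504505-148504564, minus strand; all probe positions are in hg19) read 2.67 and 2.94 after the mimic and 3.12 and 3.11 in the control. The groups did not overlap, and the 2 mimic arrays differed from each other more than the controls did. Its log2 difference was -0.31 ± 0.11 (SE), with a 95% interval from -0.64 to 0.02 and an adjusted p of 0.219 by limma. It was -0.18 without mimic array 1 and -0.44 without mimic array 2. EZH1 (NM_001991; chr17:40852674-40852733, minus strand), the homolog that predominates in non-dividing cells, read -0.16 on both mimic arrays and -0.21 and -0.19 on the control arrays. That is a log2 difference of 0.04 ± 0.052 (SE), with an interval from -0.11 to 0.19 and an adjusted p of 0.623 by limma.

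EED, the subunit that binds trimethylated H3K27 and stimulates the enzyme, read 4.51 and 4.38 after the mimic and 4.50 and 4.56 in the control (NM_152991; chr11:85989629-85989688, plus strand). The groups overlapped, and its log2 difference was -0.09 ± 0.076 (SE; limma adjusted p = 0.518), or -0.15 without mimic array 1 and -0.02 without mimic array 2. SUZ12, which holds the complex together, was spotted 10 times on each array (NM_015355; chr17:30327536-30327595, plus strand), so its error within an array can be seen. Its mean was 3.01 and 3.09 after the mimic and 3.20 and 3.17 in the control. The SD among the single spots of an array was 0.13 and 0.066 after the mimic and 0.061 and 0.088 in the control, and each array's value is the mean of its spots. The log2 difference was -0.14 ± 0.059 (SE), and its interval ran from -0.31 to 0.03 (limma adjusted p = 0.26). The medians over the spots were 3.06 and 3.11 after the mimic and 3.21 and 3.18 in the control, in the same order as the means.

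RBBP7, a WD-repeat histone chaperone, was spotted 10 times as well, with 1 spot left out on control array 2 for its outlier flag (NM_002893; chrX:16863010-16863069, minus strand). It read 5.86 and 5.87 after the mimic and 5.89 and 5.87 in the control, a log2 difference of -0.02 ± 0.052 (SE; limma adjusted p = 0.85). The 95% interval ran from -0.17 to 0.13, and the spots of each array spread over a wider range than the arrays did.

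**Figure D4:**
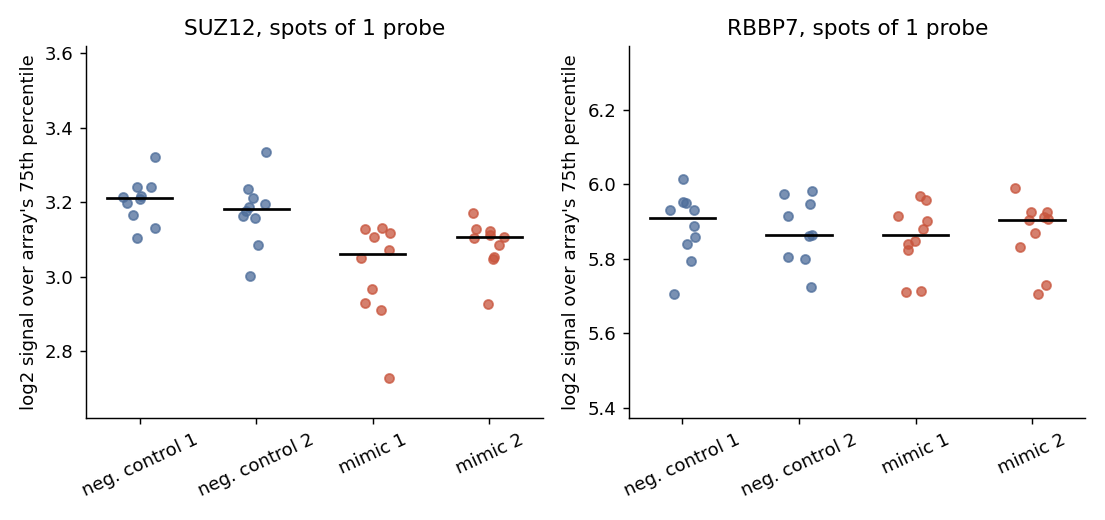
Log2 signal, relative to the 75th percentile of the array, of each spot of the SUZ12 probe (left) and the RBBP7 probe (right) on each array, with the median of the spots as a bar. Each array has 10 spots (9 for RBBP7 on control array 2). The spots of SUZ12 on the mimic arrays have medians of 3.06 and 3.11, below the 3.21 and 3.18 of the controls, and their ranges overlap.

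RBBP4, the close homolog of RBBP7, had 4 probes with 1 accession (NM_005610, plus strand of chromosome 1), and they fell into pairs. The probe at chr1:33146199-33146258 read 4.74 and 4.71 after the mimic and 4.98 and 4.91 in the control, a log2 difference of -0.22 ± 0.058 (SE; limma adjusted p = 0.158). The probe at chr1:33145808-33145867 read 3.83 and 3.81 after the mimic and 4.01 and 4.04 in the control, a log2 difference of -0.20 ± 0.053 (SE; limma adjusted p = 0.154). On both the groups did not overlap, and replicate arrays were close. The probe at chr1:33145595-33145654 read 1.96 and 2.13 after the mimic and 2.10 and 2.13 in the control, and the one at chr1:33151434-33151493 read 1.35 and 1.06 after the mimic and 1.26 and 1.22 in the control. These differed by -0.07 ± 0.082 and -0.04 ± 0.12 (SE), the groups overlapped, and the adjusted p by limma was 0.609 and 0.869. The 3 upstream probes lie within 664 bases of each other and the fourth 5.17 kb beyond them. The range of the 4 log2 differences was 0.18, close to the median of 0.16 for genes with several probes. With a variance trend in limma's moderation, an alternative setting, the adjusted p of the first pair was 0.0478 and 0.0474, so that 2 of the 12 probes passed, against 3.6% of all probes called lower by that setting.

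Among the Polycomb-like proteins besides PHF19, PHF1 read higher and MTF2 lower, and neither passed the test. PHF1 (NM_024165; chr6:33383929-33383988, plus strand) read 1.63 and 1.55 after the mimic and 1.49 and 1.39 in the control. Its groups did not overlap, and the log2 difference was 0.15 ± 0.070 (SE), with an interval from -0.05 to 0.35 and a limma adjusted p of 0.285. MTF2 (NM_007358; chr1:93602318-93602377, plus strand) read 1.71 and 1.27 after the mimic and 1.77 and 1.86 in the control. Mimic array 1 was near the controls and array 2 far below them. The log2 difference of -0.33 ± 0.18 (SE; limma adjusted p = 0.335) was -0.11 without mimic array 2 and -0.55 without mimic array 1.

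JARID2, a DNA-binding subunit that is itself methylated by PRC2, showed the same unevenness (NM_004973; chr6:15521805-15521864, plus strand). It read 1.24 and 0.82 after the mimic and 1.35 and 1.26 in the control, a log2 difference of -0.27 ± 0.17 (SE; limma adjusted p = 0.383). It was -0.06 without mimic array 2 and -0.48 without mimic array 1. The SD between the mimic arrays was 0.31 for MTF2 and 0.30 for JARID2, against 0.065 and 0.062 between the controls.

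The start of PHF19 was examined for letters of the E2F motif, the site of the factors that switch on genes of DNA replication. The motif was chosen after EZH2, RBBP4 and proliferation genes were seen to read lower in the same arrays. The motif was searched as TTTCCCGC, TTTCGCGC, TTTGCCGC or TTTGGCGC on both strands of windows from 250 bases before to 50 bases after each RefSeq start (GRCh38.p14). It was in 1 or more windows of 5 of the 10 genes (EZH1, EZH2, MTF2, PHF19 and SUZ12), where 3.99% of 27305 genes had one, and in 5 of the 15 windows, where 3.31% of 35116 windows had one. RBBP4 had 0 matches in its windows, while EZH1, which had 1, had a log2 difference of 0.04. The windows are not matched for base composition, and a match is no site of binding. Any part of E2F factors in these levels was not tested. The 250 bases before the 2 PHF19 starts are printed because only the second, the one farther upstream, holds the motif, shown in capitals; the windows lie at chr9:120868912-120869161 and chr9:120877189-120877438 on the minus strand of GRCh38.p14. Which start gives rise to which annotated transcript variant was not determined.
PHF19 start 1: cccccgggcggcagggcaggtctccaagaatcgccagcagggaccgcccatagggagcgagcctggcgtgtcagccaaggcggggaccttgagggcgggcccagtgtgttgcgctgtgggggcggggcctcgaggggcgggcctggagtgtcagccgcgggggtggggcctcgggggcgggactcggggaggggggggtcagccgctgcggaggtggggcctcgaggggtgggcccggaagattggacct
PHF19 start 2: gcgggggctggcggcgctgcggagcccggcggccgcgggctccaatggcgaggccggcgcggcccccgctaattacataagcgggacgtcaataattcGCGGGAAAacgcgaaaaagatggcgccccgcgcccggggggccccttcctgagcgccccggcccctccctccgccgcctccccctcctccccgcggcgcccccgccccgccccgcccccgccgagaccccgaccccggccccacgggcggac
These stretches are rich in G and C, at 75.6% and 79.2%, with 21 and 39 CG pairs.

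The 5 genes whose pattern over the 4 arrays was most like that of the PHF19 variant 1 probe were SNORA28, CCNE2, SNORD3B-1, E2F5 and ABRACL. Likeness was the Euclidean distance between the 4 log2 levels after subtracting each probe's mean, over the 17125 named probes that were detected on every array, and it was 0.0472, 0.0605, 0.0765, 0.108 and 0.136 in that order. Their log2 differences were -1.11, -1.16, -1.03, -1.03 and -1.02. CCNE2 encodes cyclin E2 and E2F5 a transcription factor of the E2F family, while SNORA28 and SNORD3B-1 are small nucleolar RNAs, the latter with near-identical copies that its probe may also read. In all, 159 of the 17125 probes (0.928%) lay within a distance of 0.5 of the probe picked for its decrease.

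Other genes of Polycomb biology were read by the brightest tested probe of each gene, where 4.83% of 16192 genes were lower and 1.95% higher by more than 1.5-fold, 51.3% were lower at all and the median log2 difference was -0.01. Of the 6 further PRC2 accessory proteins, 5 had a tested probe, 0 changed by more than 1.5-fold and the median was 0.27. EPOP, which links PRC2 to elongin, had the largest decrease at -0.35 (limma adjusted p = 0.126), and LCORL the largest increase at 0.43 (limma adjusted p = 0.35), which ranged from 0.18 without control array 1 to 0.67 without control array 2.

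PRC1, the complex that ubiquitinates histone H2A and reads the mark PRC2 writes, had all 25 listed subunits tested, with 14 lower, 11 higher and a median of -0.05. By more than 1.5-fold, 2 were lower and 1 higher, and by limma 0 passed an adjusted p of 0.05. CBX2, a chromodomain subunit that binds trimethylated H3K27, read 2.41 and 2.36 after the mimic and 2.99 and 2.96 in the control, a log2 difference of -0.59 ± 0.056 (SE; limma adjusted p = 0.0948). SCML2, a Polycomb protein of the Sex comb on midleg family, read -1.34 and -1.30 after the mimic and -0.63 on both controls, a log2 difference of -0.69 ± 0.053 (SE; limma adjusted p = 0.0948). Both genes were well separated between the groups, in the direction of the PHF19 variant 1 probe. CBX7, another chromodomain subunit, went the other way, reading 1.26 and 1.13 after the mimic and 0.58 and 0.55 in the control, a log2 difference of 0.63 ± 0.072 (SE; limma adjusted p = 0.0948). A second CBX7 probe with the same accession differed by 0.00 ± 0.12 (SE), a range of 0.63 between the probes. CBX2 without mimic array 2 (-0.56) and CBX7 without mimic array 1 (0.56) fell just short of 1.5-fold. With the variance trend, 3 PRC1 genes were called lower (CBX2, SCML2 and PHC2), where 3.96% of all genes were, and 1 higher (CBX7), where 4.28% were.

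The PR-DUB complex, which removes the ubiquitin that PRC1 adds, had 8 of 8 genes tested with a median of -0.02 and 0 changed by more than 1.5-fold. ASXL3 was lowest at -0.51 (limma adjusted p = 0.56) and BAP1, its deubiquitinase, highest at 0.32 (limma adjusted p = 0.123). ASXL3 read -2.69 and -2.39 after the mimic and -2.69 and -1.36 in the control, and its difference was 0.15 without control array 2. With the variance trend BAP1 was called higher, at an adjusted p of 0.0372, and 0 of the 8 were called lower. The 14 enzymes and remodelers that oppose PRC2 had a median of -0.03 and 0 changed by more than 1.5-fold. They ranged from CREBBP, an acetyltransferase for H3K27, at -0.46 (limma adjusted p = 0.341), to SMARCA2, an ATPase of the SWI/SNF remodelers, at 0.34 (limma adjusted p = 0.175). CREBBP read 1.32 and 0.66 after the mimic and 1.41 and 1.51 in the control, and its difference was -0.13 without mimic array 2 and -0.79 without mimic array 1.

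Of 24 genes often studied as repressed by PRC2, 14 had a tested probe and 10 did not, the latter including SOX17, PAX3 and CDKN2B. The filter on signal thus kept the genes whose RNA was detected in these cells, and the summary does not describe the others. Whether PRC2 represses any of the 14 in these cells was not tested. The median of the 14 was -0.01, with 8 lower and 6 higher. By more than 1.5-fold, 2 were lower and 1 higher, where 4.83% and 1.95% of all genes were. The higher one is not reported here. The lower ones were PAX6 and TBX5, developmental transcription factors, at -0.78 ± 0.43 and -0.74 ± 0.25 (SE), with limma adjusted p of 0.345 and 0.204. For PAX6, control array 1 read -0.38 and the other 3 arrays between -1.90 and -1.46, its difference was -0.24 without control array 1, and a second PAX6 probe had a log2 difference of -0.33. The TBX5 difference was -0.41 without mimic array 1, and a second TBX5 probe, well above background on only 3 arrays, had a log2 difference of -0.32. With the variance trend 1 of the 14 was called lower (CDKN1C, at -0.54), where 3.96% of all genes were, and 0 were called higher, where 4.28% were.

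Proliferation genes read lower on the same arrays: 22 of 24 were lower, with a median of -0.21, where 51.3% of all genes were lower. CCNE2 was the 1 gene lower by more than 1.5-fold (-1.16 ± 0.099, SE; limma adjusted p = 0.0948), and 0 were higher by that much. With the variance trend 8 of the 24 were called lower, where 3.96% of all genes were, and 0 were called higher. The summed level of the 24 genes, as a multiple of the 75th percentile, was 502 and 506 on the mimic arrays and 588 and 585 on the control arrays. Their part in the lower levels of EZH2, RBBP4 and PHF19 was not tested.

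**Figure D5:**
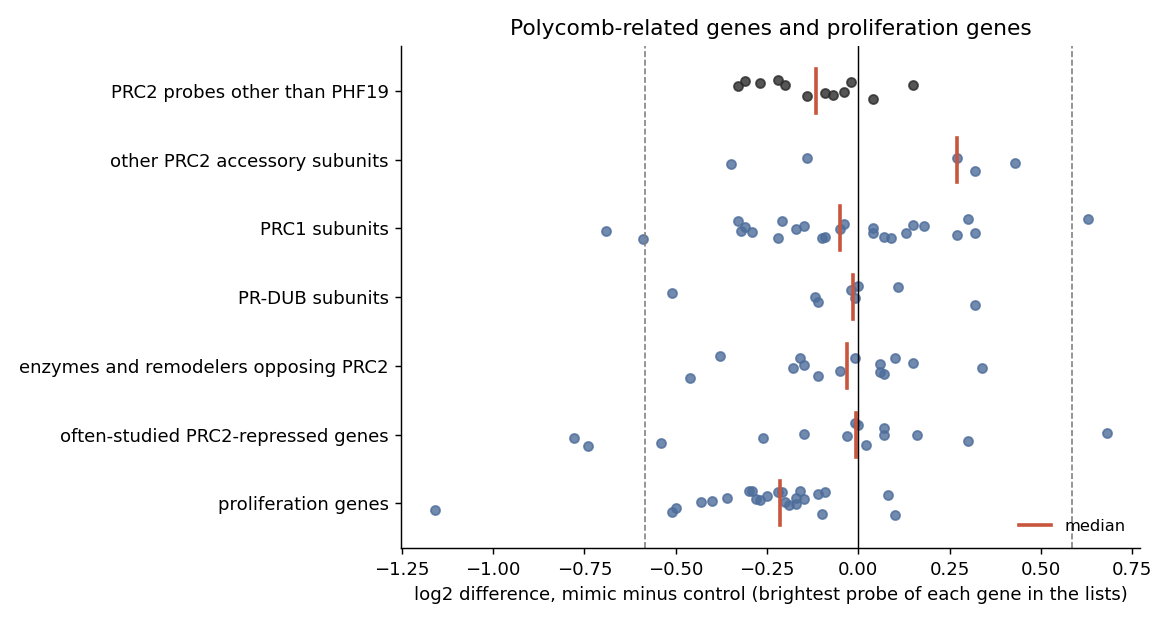
Log2 difference (miR-34a mimic minus negative control) of the 12 PRC2 probes other than those of PHF19, in black, and of the brightest tested probe of each gene in 6 lists, in blue. Red bars are medians and dashed lines mark a 1.5-fold change. The proliferation genes have a median of -0.21 and the PRC1 subunits one of -0.05, with CBX2 and SCML2 past the left line and CBX7 past the right line.

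The cell line was checked against its markers. All 7 GIST genes listed (KIT, ANO1, ETV1, PRKCQ, PDGFRA, GPR20 and CD34) had probes well above background on all 4 arrays. Of these 7, 6 read lower after the mimic, where 51.3% of all genes did, and CD34 read higher at a log2 difference of 0.37. The decreases were uneven. PDGFRA was at -1.53 and the brightest KIT probe at -0.70 (limma adjusted p = 0.0948 for both), but ANO1 was at -0.06 and ETV1 at -0.07. The summed level of the 7, to which the brightest genes add most, was 393 and 390 after the mimic and 559 and 553 in the control. The part of these differences in the results above was not tested. Of 15 epithelial, leukocyte and endothelial markers, 8 were not well above background in either condition, among them CDH1, PTPRC, PECAM1 and VWF. The summed level of the 4 tested leukocyte genes was 0.786 and 0.818 after the mimic and 1.05 and 0.913 in the control, that of the 2 tested epithelial genes was 0.485 and 0.454 against 0.468 and 0.376, and that of CDH5, the endothelial gene tested, was 0.0844 and 0.0803 against 0.154 and 0.168.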

How the data were processed

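Gene expression was measured in GIST-T1 cells on 4 arrays, 2 per condition, as the labels group them. The authors deposited, for each array, spot intensity from Agilent Feature Extraction (10.7 per the labels, 10.7.3.1 per the file headers), which subtracts background and removes spatial trends, with flags for signal well above background and for outliers, and the same processed intensity values as a matrix, within 0.496% of the scanner output. No scaling between arrays had been applied to the deposited intensity values. The arrays share a slide and a scan.

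Control spots and outlier-flagged spots (293 to 424 of 58717 per array) were left out, and spots of a probe were averaged. From the deposited signal, log2 levels were computed relative to each array's 75th percentile. Of 50599 probes, 41.8% to 45.2% per array were well above background, and the 21474 that were so on both arrays of at least 1 condition were tested with limma 3.58.1 (lmFit and eBayes) and Benjamini-Hochberg adjustment in R 4.3.3 with data.table version 1.17.8. The number of arrays limits the precision: log2 levels of replicate arrays differed with an SD of 0.337 after the mimic and 0.29 in the control. The calculation was tested on simulated data.

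Calls are changes of more than 1.5-fold, the threshold that the study's results give for downregulated genes, or an adjusted p under 0.05. Probes of the 10 genes were matched by name, and 13 of 14 also by accession to RefSeq gene records. The text names every probe of these genes, list genes changed by more than 1.5-fold on the brightest tested probe or otherwise those with the largest decrease and increase, and the 5 genes most like PHF19. A gene that this rule would name is not reported here. The genes and lists were chosen with earlier results of these data known. Alternatives were quantile normalization, normexp background correction (offset 50), the 75th percentile over detected probes, no filter on dim probes, only probes detected on all 4 arrays, the authors' matrix, a variance trend, the methods' t-test, a replicate block, leaving out each array, and the mean of a gene's probes. Target sites in 3′ UTRs were not analysed here.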

Additional observations from a re-analysis of the deposited data

How the results depend on the processing

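The PHF19 variant 1 probe, picked for its decrease, was lower by more than 1.5-fold under all 13 alternatives. The filters on probes, the variance trend, the t-test and the replicate block cannot change its log2 difference, so they add nothing to that count. The difference ran from -0.99 to -1.20 when an array was left out and was -0.92 with normexp background correction. The variant 2 difference was -0.06 with quantile normalization and ran from -0.13 to -0.09 when an array was left out. The mean of both PHF19 probes, which takes in variant 1, had a difference of -0.60. Of 157 recomputed differences of the other subunits, 150 kept their direction and side of the threshold. Under the settings that cannot change a log2 difference, only the adjusted p could move. The 2 RBBP4 probes with the largest decreases passed with the variance trend, which made the count of other subunit probes at an adjusted p under 0.05 equal to 2 instead of 0, and the mean of the 4 RBBP4 probes was -0.13. RBBP7 turned to 0.01 with normexp and 0.06 with quantile normalization, the RBBP4 probe at 33145595 to 0.01 without mimic replicate 1 (lowest -0.16 with another array left out), and the one at 33151434 to 0.11 without mimic replicate 2 (lowest -0.18); the cause was not tested.

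Over all probes, the counts lower and higher by more than 1.5-fold were 1030 and 453. They were 185 and 68 with normexp, 6823 and 2070 with no filter on dim probes, 512 and 285 over probes detected on all 4 arrays, and 775 and 702 with quantile normalization, where 52.5% of the changed probes were lower instead of 69.5%. They ran from 990 to 1421 and from 527 to 567 when an array was left out. By limma 0 probes passed an adjusted p of 0.05 and 5222 an unadjusted 0.05, while 877 passed the adjusted threshold with normexp, 1591 with the variance trend and 1 with the methods' t-test, which had 4202 at an unadjusted 0.05.

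The median of the other PRC2 accessory subunits was 0.07 with normexp and 0.16 to 0.35 when an array was left out. That of the PRC1 subunits ran from -0.08 to 0.04, of the PR-DUB subunits from -0.06 to 0.03, of the opposing enzymes from -0.03 to 0.06 (0.01 with normexp), of the PRC2-repressed genes from -0.02 to 0.02 (0.02 with quantile normalization) and of the proliferation genes from -0.22 to -0.19 (-0.19 with normexp). Same-numbered arrays did not deviate together (r = -0.0276 across probes, 2 pairs). With 2 arrays per condition the 2 deviations of a condition mirror each other, so this check cannot decide whether same-numbered arrays were paired. Each replicate number holds an array of each condition, so a replicate block cannot change the log2 difference of a probe with a value on every array. The differences were therefore as without it (-1.10 for PHF19 variant 1, 1030 probes lower and 453 higher). With the block, 0 probes passed an adjusted p of 0.05 by limma.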
